A study of Mus musculus with 4 samples.

Results

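The SNF2 family holds the ATP-driven motors of chromatin, and 31 of its genes were described in hematopoietic stem and progenitor cells that lack PICH. PICH, the Plk1-interacting checkpoint helicase, belongs to the same family, and its own gene, listed as *Ercc6l*, was kept apart as the targeted gene. The members were chosen by gene name as the SNF2-family genes other than *Ercc6l*. Their measured values set no rule for the choice, but earlier results of these data were known. All 31 were found among the 39186 genes of the deposited table, and all 31 were among the 32428 genes tested.

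SNF2 proteins share a motor domain that burns ATP to move along DNA. Remodelers of the SWI/SNF, ISWI, CHD and INO80 classes use it to slide, evict or exchange nucleosomes, while other members pull DNA out of paused replication forks, strip bound proteins from DNA or help broken DNA find its partner strand. In blood formation, these proteins set which genes a stem cell can open and help it to copy its genome without damage.

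RNA of LSK cells (lineage-negative, Sca-1+ and c-Kit+), the sorted fraction that holds the stem cells of the mouse fetal liver, was sequenced for 2 samples of *Pich*-KO and 2 of *Pich*-WT embryos. All samples were C57BL/6, no agent was given, and the methods describe fetal livers taken at E14.5. The *Pich*-KO allele was a small TALEN-made deletion at the start of the second exon, carried by every cell of the embryo, and *Pich*-WT embryos had the intact gene. The number of embryos behind a sample was not stated, so p-values measure only the spread between these samples, which may be technical.

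Depth ran from 14703215 to 20933919 reads on genes per sample. *Ercc6l*, on chromosome X, had 1142 and 1232 normalized counts in *Pich*-KO samples 1 and 2, and 772 and 661 in *Pich*-WT samples 1 and 2. Its mRNA was thus higher in *Pich*-KO (log2 fold change 0.73, SE 0.14, limma adjusted p = 0.00887). A deletion of this kind leaves the transcript countable, so this level does not check the genotype labels. *Pich*-WT sample 2 stood apart from the other samples, with 699 normalized counts of *Xist* against 4.55 to 14.2, and 0 of the Y-linked *Ddx3y* against 714 to 1065.

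The LSK label was set against marker genes. The LSK markers *Kit* and *Ly6a*, which encode c-Kit and Sca-1, were detected in all samples, and the 10 LSK markers summed to 21861 and 32128 in *Pich*-KO and to 26485 and 26953 in *Pich*-WT. That sum covers unequal changes, since *Ly6a* was higher in *Pich*-KO (log2 fold change 1.74) and 4 of the 10 were lower by limma, *Procr* (−2.88), *Hlf* (−2.37), *Mecom* (−2.10) and *Slamf1* (−0.90), genes known for their expression in stem cells. The lineage genes *Cd8a*, *Cd8b1* and *Ly6g* had at most 5 normalized counts in any sample, and *Cd8a* and *Cd8b1* were at 0 in 1 sample of each group. Markers of cells outside the gate were nevertheless present, and more so in *Pich*-WT. All 12 macrophage markers were lower in *Pich*-KO, with a summed level of 8023 to 9149 against 59362 to 60902, and *Vsig4* was at 0 in *Pich*-KO sample 2. All 8 endothelial markers were lower too (2755 to 4473 against 27082 to 38789), as were 9 of 11 erythroid markers (35921 to 38934 against 142669 to 201763) and 6 of 10 hepatocyte markers (2801 to 3170 against 4581 to 5106). Of 14 proliferation genes, 10 were higher in *Pich*-KO and none was lower (127094 to 132774 against 98718 to 102062). These lists moved with every difference between the groups given here, and their part in those differences was not tested. In bulk RNA, fewer cells of a type and less RNA per cell cannot be told apart.

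The promoters of 4 members are shown first, because they belong to 3 genes that rose and 1 that fell, and differ in the short motifs they carry. Each run covers 250 bases before to 50 bases after a gene start, in the direction of the gene, from RefSeq on GRCm38.p6. Capitals mark a CCAAT box (CCAAT or, on the other strand, ATTGG) in *Ttf2* (chr3:100969614-100969913, minus strand) and *Hltf* (chr3:20057561-20057860, plus strand). In *Btaf1* (chr19:36925829-36926128, plus strand), they mark an interferon-response motif (GAAA blocks 2 bases apart, here as TTTCCGTTTC on the other strand) and an ETS motif (CCGGAAG, here as CTTCCGG). In *Smarca2* (chr19:26604910-26605209, plus strand), they mark an ETS motif.
Btaf1: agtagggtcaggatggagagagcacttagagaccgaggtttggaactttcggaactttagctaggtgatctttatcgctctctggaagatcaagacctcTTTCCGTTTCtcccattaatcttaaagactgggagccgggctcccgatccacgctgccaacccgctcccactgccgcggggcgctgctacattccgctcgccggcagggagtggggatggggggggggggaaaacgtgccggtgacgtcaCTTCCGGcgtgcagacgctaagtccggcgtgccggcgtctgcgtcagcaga
Ttf2: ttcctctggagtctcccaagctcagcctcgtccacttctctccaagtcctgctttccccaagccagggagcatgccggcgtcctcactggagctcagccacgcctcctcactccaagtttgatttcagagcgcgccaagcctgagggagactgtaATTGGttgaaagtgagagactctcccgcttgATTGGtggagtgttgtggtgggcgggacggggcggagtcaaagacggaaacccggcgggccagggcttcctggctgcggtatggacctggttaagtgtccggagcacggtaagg
Hltf: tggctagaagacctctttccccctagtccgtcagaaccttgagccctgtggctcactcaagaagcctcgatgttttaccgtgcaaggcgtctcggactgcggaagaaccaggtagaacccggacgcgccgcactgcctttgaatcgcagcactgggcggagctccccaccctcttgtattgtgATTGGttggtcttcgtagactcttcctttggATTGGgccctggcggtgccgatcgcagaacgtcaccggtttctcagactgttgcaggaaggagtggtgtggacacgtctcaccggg
Smarca2: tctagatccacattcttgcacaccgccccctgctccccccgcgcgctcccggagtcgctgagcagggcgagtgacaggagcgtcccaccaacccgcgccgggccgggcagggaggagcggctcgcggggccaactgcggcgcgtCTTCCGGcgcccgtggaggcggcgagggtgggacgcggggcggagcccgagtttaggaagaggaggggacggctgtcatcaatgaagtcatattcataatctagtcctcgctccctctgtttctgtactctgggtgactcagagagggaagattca

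A RefSeq promoter was found for 25 of the 31 members. *Chd1*, *Chd2*, *Chd3*, *Chd7*, *Rad54b* and *Rad54l2* were not matched. A CCAAT box on either strand stood in a promoter of 12 of the 25, made up of 6 of 13 members that rose, 0 of 1 that fell and 6 of 11 that did not pass the threshold. Some members had more than 1 promoter, and counted by promoter the CCAAT box stood in 15 of 32. Over all 32851 promoters of this length the share was 37.41%. The ETS motif was found in 5 members (*Btaf1*, *Chd8*, *Shprh*, *Smarca2* and *Zranb3*). By promoter this was 5 of 32, beside 8.86% of all promoters. The interferon-response motif was found in 1 member, *Btaf1*, and in 3.44% of all promoters. For E2F only the letters TTTGGCGC or TTTCGCGC were searched, found in 0 members and in 0.81% of all promoters. Other forms of the E2F motif were not searched, so this count does not show that the members lack one. No motif overlapped another in the 4 promoters shown. A match of letters is a description and does not show that a factor binds there.

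Which SNF2 genes differed between *Pich*-KO and *Pich*-WT LSK cells was tested with limma on log2(normalized count + 1), in a fit across all genes. At an adjusted p of 0.05, 15 of the 31 members were higher in *Pich*-KO, 2 were lower and 14 did not pass. Of all genes tested, 17.2% passed, 7.58% as higher and 9.6% as lower. The median log2 fold change was 0.42 over the members and 0.02 over all genes tested. Sample values were fully apart between the groups for 25 members (20 higher and 5 lower in *Pich*-KO), as they were for 56.1% of all genes tested (28.9% higher and 27.2% lower).

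SNF2 genes are long and well expressed, and a larger share of such genes passed. A closer background, chosen after the values were seen, was therefore given by the 5873 genes that averaged at least 100 normalized counts and had at least 4000 exonic bases. There, 21.5% were higher and 21.8% lower. Of the 29 members in this class, 15 (51.7%) were higher and 2 (6.90%) were lower. The median log2 fold change of the class was 0.03.

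The count rested on all 4 samples. Without *Pich*-KO sample 1, 4 members were higher at the threshold (*Smarcad1*, *Hells*, *Btaf1* and *Hltf*) and 0 lower, of 548 higher and 1193 lower over all genes. Without *Pich*-KO sample 2, *Pich*-WT sample 1 or *Pich*-WT sample 2, limma called 0 members and 0 of all genes, while 19, 17 and 17 members had an unadjusted p under 0.05. With all samples, edgeR's quasi-likelihood test of recovered reads called 16 members higher and 3 lower, among them all 15 that limma called higher, where 18.6% and 20.7% of its 16608 genes passed in these directions. DESeq2 called 16 and 2 members, beside 16.7% and 20.3% of 15635 genes. With a minimum absolute log2 fold change of 1 added to the limma call, 7 members were higher and 0 lower, beside 2.78% and 6.91% of all genes tested.

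**Figure D1:**
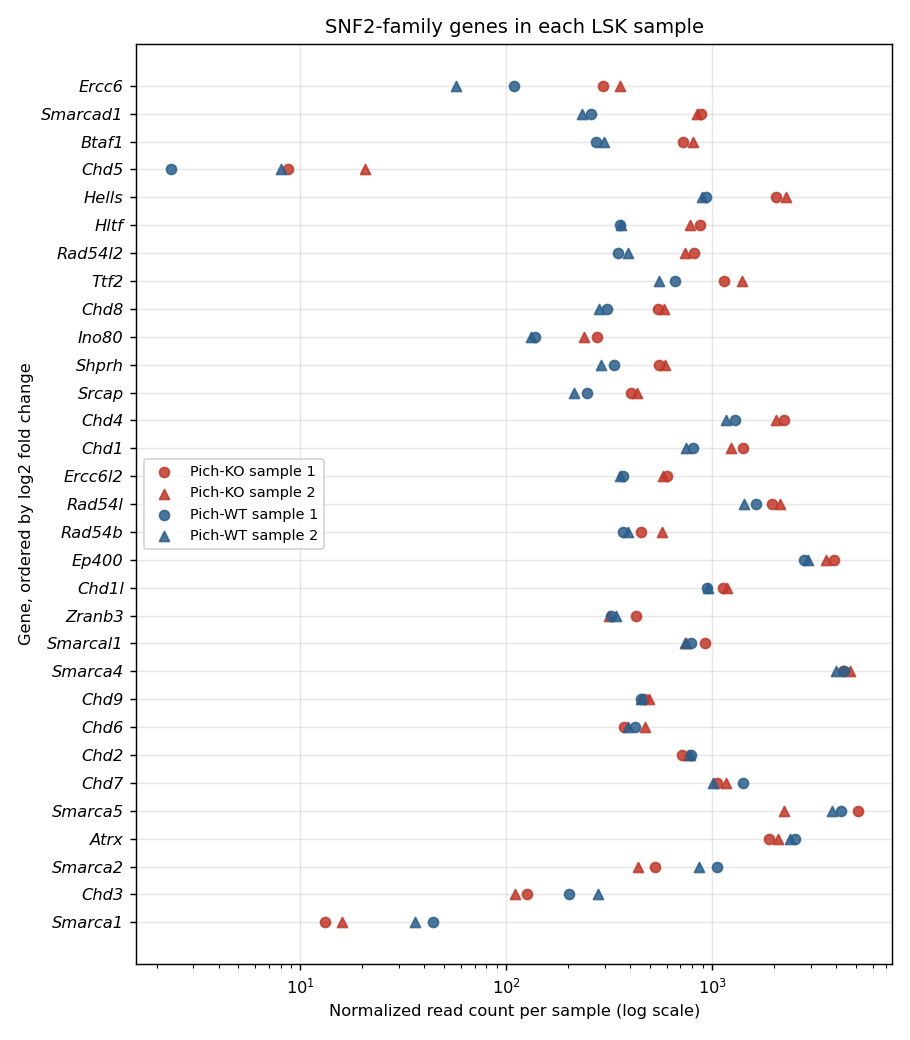
Normalized read counts (log scale) of the 31 SNF2-family genes in each LSK sample, ordered by log2 fold change; red marks *Pich*-KO, blue *Pich*-WT, circles sample 1 and triangles sample 2. From *Ercc6* at the top down to *Ep400* the red symbols lie to the right of the blue ones. Apart from the barely detected *Chd5* (8.73 and 20.5), *Smarca5* shows the widest gap between its *Pich*-KO samples on this scale (5099 and 2225).

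Of the translocases tied to transcription, 4 of 4 were higher, with a median log2 fold change of 1.24. This is a small list, beside 7.58% higher of all genes tested and 21.5% of the long, well expressed class. *Ercc6* encodes CSB, the Cockayne syndrome protein that starts repair where RNA polymerase II has stalled on damaged DNA (chromosome 14, 32513521 to 32580990). It had 293 and 356 normalized counts in *Pich*-KO against 109 and 57.0 in *Pich*-WT. Both *Pich*-KO values were over the higher *Pich*-WT value, and the *Pich*-WT samples themselves lay far apart. The log2 fold change of 2.02 (SE 0.32, limma adjusted p = 0.00381) was the largest among the members, and it ran from 1.55 without *Pich*-WT sample 2 to 2.48 without *Pich*-WT sample 1.

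*Btaf1*, whose product pulls the TATA-binding protein off DNA, had 721 and 804 normalized counts in *Pich*-KO against 271 and 298 in *Pich*-WT. This was a mean of 762 ± 58.5 (SD, n = 2) against 285 ± 19.0 (SD, n = 2), with a log2 fold change of 1.42 (SE 0.16, limma adjusted p = 0.000748). The groups were well apart, and the samples of each lay close together. *Ttf2*, a termination factor that releases RNA polymerase II from its template, had 1134 and 1389 against 656 and 552. It rose by a log2 fold change of 1.06 (SE 0.16, limma adjusted p = 0.00295). *Ercc6l2*, a DNA repair gene whose human counterpart is mutated in an inherited bone marrow failure, had 602 and 575 against 370 and 357. Its rise was smaller than those of the other three but steady between samples (log2 fold change 0.69, SE 0.15, limma adjusted p = 0.0163).

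All 3 ATPases of the INO80 and SWR1 type were higher as well, a small list beside the same shares of 7.58% and 21.5% higher. Their median log2 fold change was 0.86. These large enzymes exchange the histone variant H2A.Z or slide nucleosomes around promoters. *Ino80* had 275 and 239 normalized counts in *Pich*-KO against 138 and 131 in *Pich*-WT (log2 fold change 0.93, SE 0.20, limma adjusted p = 0.017). *Srcap*, which loads H2A.Z, had 405 and 429 against 246 and 212 (log2 fold change 0.86, SE 0.18, limma adjusted p = 0.0127). For both genes the *Pich*-KO values lay over all *Pich*-WT values. *Ep400*, the ATPase of the TIP60 acetyltransferase complex, had 3913 and 3549 against 2781 and 2904. Its change was the smallest of the members that passed (log2 fold change 0.39, SE 0.10, limma adjusted p = 0.0297), and it did not pass on CPM (limma adjusted p = 0.0616) or with no filter on the mean (limma adjusted p = 0.058). The *Srcap* exons share 9738 bases with the gene model *Gm42715* on the same strand, on which 32 to 47 reads per sample were counted.

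Of the 4 remodelers linked to DNA methylation, heterochromatin and PARP, 2 rose, beside the same shares of 7.58% and 21.5% higher. *Smarcad1*, which helps to restore silent chromatin behind the replication fork and to trim DNA ends for repair (chromosome 6, 65042583 to 65116061), had 885 and 845 normalized counts in *Pich*-KO. In *Pich*-WT it had 259 and 232. The samples of a group lay close together and the groups far apart, with means of 865 ± 28.3 (SD, n = 2) and 245 ± 18.9 (SD, n = 2). This log2 fold change of 1.81 (SE 0.16, limma adjusted p = 0.000235) had the lowest adjusted p of the members.

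*Hells*, or LSH, is needed for the methylation of repeated DNA and is best known from dividing cells and from lymphoid development (chromosome 19, 38930915 to 38971051). It had 2036 and 2266 normalized counts in *Pich*-KO against 928 and 891 in *Pich*-WT. With means of 2151 ± 162 (SD, n = 2) and 910 ± 26.5 (SD, n = 2), the log2 fold change was 1.24 (SE 0.12, limma adjusted p = 0.000372). The proliferation genes, whose summed level is given above, moved in the same direction, and the part of this in the *Hells* value was not tested. *Chd1l*, a remodeler recruited by poly(ADP-ribose), had 1132 and 1181 against 939 and 957 (log2 fold change 0.29, limma adjusted p = 0.167).

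*Atrx*, the partner of DAXX in depositing histone H3.3 at telomeres and repeats, was the exception in sign within this group. It had 1875 and 2086 normalized counts in *Pich*-KO against 2520 and 2381 in *Pich*-WT, with a log2 fold change of −0.31 (SE 0.11, limma adjusted p = 0.0994). The groups did not overlap, yet the change passed only on CPM (limma adjusted p = 0.0418) among the alternatives. *Atrx* lies on chromosome X, and without *Pich*-WT sample 2, the sample with *Xist* reads, its log2 fold change was −0.35.

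The replication fork translocases split into a pair that rose and a pair that did not pass. *Hltf* and *Shprh* encode proteins that join a motor to a ubiquitin ligase acting on PCNA, the sliding clamp of replication. *Hltf* had 868 and 776 normalized counts in *Pich*-KO against 356 and 362 in *Pich*-WT (log2 fold change 1.19, SE 0.15, limma adjusted p = 0.00126). *Shprh* had 548 and 589 against 332 and 287 (log2 fold change 0.88, SE 0.17, limma adjusted p = 0.0085). *Smarcal1* and *Zranb3*, which reverse stalled forks and carry no such ligase, had values that overlapped between the groups. *Smarcal1* had 925 and 745 against 787 and 734, with a 95% interval of the log2 fold change from −0.23 to 0.48. *Zranb3* had 425 and 315 against 320 and 340, with an interval from −0.31 to 0.61. For each of these genes a change as large as that of *Hltf* lay outside the interval. The difference in change between the pairs was not tested.

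Among the RAD54-type translocases, *Rad54l2*, which encodes a partner of the androgen receptor, rose. It had 818 and 734 normalized counts in *Pich*-KO against 346 and 388 in *Pich*-WT (log2 fold change 1.08, SE 0.16, limma adjusted p = 0.00241). *Rad54l*, a motor of homologous recombination, had 1944 and 2140 against 1629 and 1428. Its log2 fold change of 0.42 (SE 0.12, limma adjusted p = 0.0506) lay at the threshold and passed with edgeR on the recovered reads (adjusted p = 0.0217). *Rad54l* shares 1184 exonic bases with *Lrrc41* on the opposite strand, and the strand setting of the counting was not stated, so reads in that stretch could belong to either gene. *Rad54b* had 448 and 570 against 367 and 390 (log2 fold change 0.42, SE 0.18, limma adjusted p = 0.167), and 2068 of its exonic bases are shared with *Fsbp*.

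**Figure D2:**
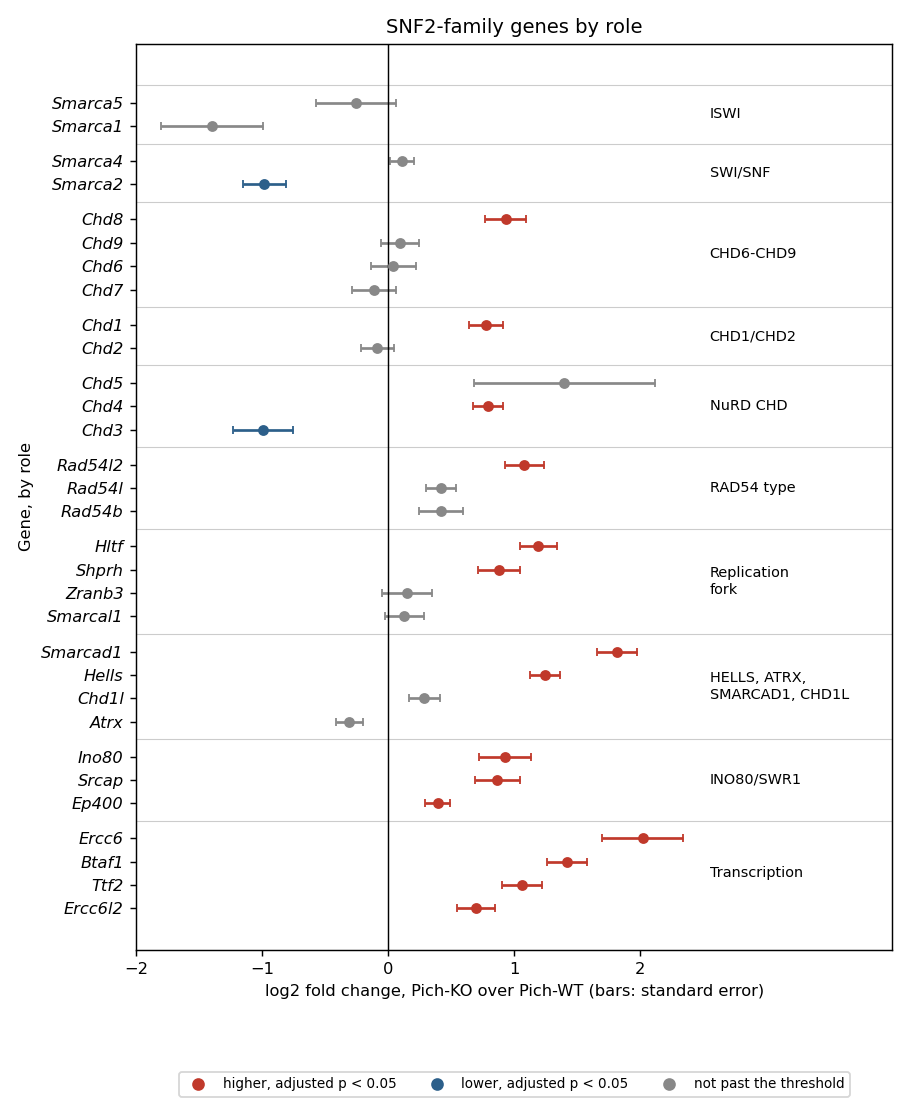
Log2 fold change of each SNF2-family gene in *Pich*-KO over *Pich*-WT LSK cells, with its standard error as a bar, grouped by role; red marks genes higher and blue genes lower at a limma adjusted p under 0.05, grey those that did not pass. All 4 transcription-linked and all 3 INO80/SWR1-type genes lie to the right of 0 in red, while the 2 blue genes are *Smarca2* (−0.99) and *Chd3* (−0.997).

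The CHD proteins carry chromodomains beside the motor, and within each of their classes the members differed in sign or call. *Chd4* and *Chd3* encode alternative motors of the NuRD repressor complex. *Chd4* had 2223 and 2027 normalized counts in *Pich*-KO against 1290 and 1170 in *Pich*-WT (log2 fold change 0.79, SE 0.12, limma adjusted p = 0.0029). *Chd3* (chromosome 11, 69343273 to 69369406) went the other way, with 127 and 110 against 202 and 278. Its means were 118 ± 11.5 (SD, n = 2) and 240 ± 54.0 (SD, n = 2), a log2 fold change of −0.997 (SE 0.24, limma adjusted p = 0.0246). With no filter on the mean, *Chd3* did not pass (limma adjusted p = 0.0558). *Chd5*, the neuronal member of the class, had 8 and 18 reads in *Pich*-KO against 3 and 8 in *Pich*-WT, too few to show a difference at this depth (log2 fold change 1.40, SE 0.72, limma adjusted p = 0.256).

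*Chd1*, which reads a histone mark of active promoters and follows elongating polymerase, rose, with 1414 and 1234 normalized counts against 801 and 741 (log2 fold change 0.78, SE 0.13, limma adjusted p = 0.00557). Its relative *Chd2* had 711 and 758 against 784 and 776, with a 95% interval from −0.40 to 0.22. A processed transcript on the same strand, *1810026B05Rik*, shares 2628 exonic bases with *Chd2* and had 94 and 111 reads in *Pich*-KO against 494 and 249 in *Pich*-WT. The *Chd2* value was therefore uncertain in that stretch.

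In the CHD6 to CHD9 class, *Chd8* alone passed. *Chd8*, known as a regulator of β-catenin and as an autism gene, had 545 and 581 normalized counts in *Pich*-KO against 308 and 282 in *Pich*-WT (log2 fold change 0.93, SE 0.16, limma adjusted p = 0.00559). *Chd7*, the CHARGE syndrome gene, had 1049 and 1159 against 1412 and 1006, and its 95% interval ran from −0.51 to 0.29. *Chd9* had 467 and 493 against 449 and 452, with an interval from −0.26 to 0.44. *Chd6* had 371 and 469 against 422 and 391, with an interval from −0.38 to 0.45. The value of *Chd8* lay outside all 3 intervals, and the difference between *Chd8* and its relatives was not tested.

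The SWI/SNF complex holds one of 2 motors, BRG1 from *Smarca4* or BRM from *Smarca2*. *Smarca4* had 4292 and 4653 normalized counts in *Pich*-KO against 4340 and 3962 in *Pich*-WT, with overlapping values and a 95% interval of the log2 fold change from −0.11 to 0.33. *Smarca2* (chromosome 19, 26605050 to 26778322) had 528 and 438 against 1059 and 857. Each *Pich*-KO value of *Smarca2* was well under the lower *Pich*-WT value, and the log2 fold change was −0.99 (SE 0.17, limma adjusted p = 0.00556). The macrophage, endothelial and erythroid markers fell in the same samples as *Smarca2* and *Chd3*, with median log2 fold changes of −5.02, −3.75 and −1.81, and their part in these changes was not tested.

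The ISWI motors *Smarca5* and *Smarca1* encode SNF2H, needed in blood progenitors of the fetal liver, and SNF2L. *Smarca5* had 5099 and 2225 normalized counts in *Pich*-KO against 4219 and 3829 in *Pich*-WT. One *Pich*-KO value was thus over both *Pich*-WT values and the other under both, and the log2 fold change of −0.25 (SE 0.32, limma adjusted p = 0.67) became −0.85 without *Pich*-KO sample 1 and 0.34 without *Pich*-KO sample 2. The ratio of the *Pich*-KO samples, 2.29, was reached or passed by 37 of the 4115 genes that averaged at least 1000 (0.899%). For the other members apart from *Chd5* it ran from 0.787 to 1.35. The pseudogene *Smarca5-ps*, which could take reads of *Smarca5*, had 27 to 50 reads per sample. *Smarca1* had 13.1 and 15.9 against 43.8 and 36.0, a log2 fold change of −1.40 (SE 0.40, limma adjusted p = 0.0504). The groups did not overlap, and *Smarca1* passed with edgeR on the recovered reads (adjusted p = 0.03) but not with DESeq2 on the same reads (adjusted p = 0.0921) or in limma with a pseudocount of 0.1 (adjusted p = 0.0576). *Smarca1* also lies on chromosome X, and its log2 fold change was −1.54 without *Pich*-WT sample 2.

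Levels were compared between genes as RPKM, which scales reads to exon length and to the total of reads on genes, computed from the recovered reads and the deposited exon lengths. *Smarca4* was the highest member in both groups, with a mean of 40.1 RPKM in *Pich*-WT and 41.5 in *Pich*-KO, followed by *Smarca5* with 32.4 and 28.3. *Chd5* was the lowest, at 0.0343 and 0.0913. *Hells* moved from the 8th place in *Pich*-WT (7.91 RPKM) to the 3rd in *Pich*-KO (17.9 RPKM). The order of *Smarca5* and *Hells* in *Pich*-KO rested on sample 1 (39.6 and 17.1 RPKM), since in sample 2 *Smarca5* was the lower of the pair (17.1 and 18.8 RPKM). Next to it in *Pich*-KO, *Chd1l* (16.1), *Ep400* (16.05), *Chd4* (15.9) and *Rad54l* (15.9) had overlapping samples and no clear order. *Smarcad1* moved from the 26th place (1.15 RPKM) to the 17th (3.90 RPKM), *Smarca2* from the 13th (4.20 RPKM) to the 24th (2.03 RPKM) and *Chd3* from the 20th (1.79 RPKM) to the 29th (0.843 RPKM).

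Summed over the 31 members, the level was 251 and 231 RPKM in *Pich*-KO and 197 and 193 RPKM in *Pich*-WT. *Smarca4* and *Smarca5* together made up 31.7% and 26.002% of this sum in *Pich*-KO against 37.6% and 36.7% in *Pich*-WT. The members that rose spanned 0.403 to 12.8 RPKM in *Pich*-WT. Exon length ran from 4309 to 23148 bases, and its Spearman correlation with the log2 fold change was −0.12 over the 31 genes, which share the same samples. The *Btaf1* length in the deposited table, 7204 bases, was shorter than the 10259 bases of its exons in GENCODE M21, so its RPKM is higher than it would be on the longer model.

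**Figure D3:**
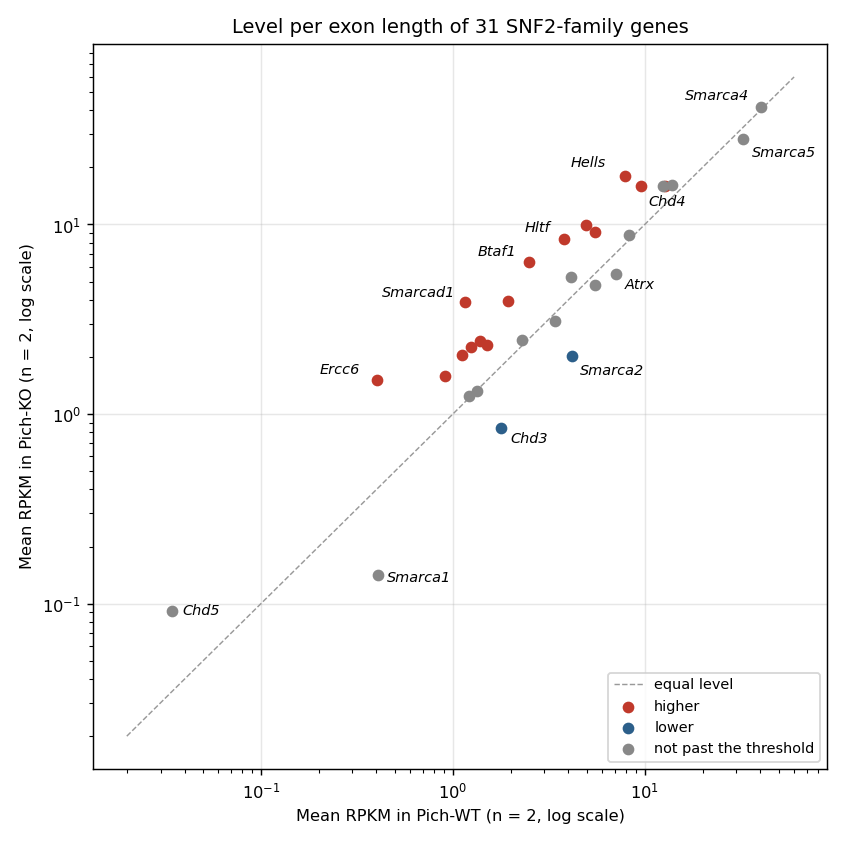
Mean RPKM of each SNF2-family gene in *Pich*-KO against *Pich*-WT LSK cells (n = 2 each, both axes log scale); the dashed line marks equal level, red genes were higher, blue lower and grey did not pass the threshold. *Smarca4* and *Smarca5* lie at the top close to the line, *Ercc6*, *Smarcad1* and *Hells* lie over it, and *Chd3* and *Smarca2* under it.

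Related members were set against each other within a sample, as ratios of RPKM over 5 pairs of paralogs. The *Smarca2* to *Smarca4* ratio was 0.0558 and 0.0427 in *Pich*-KO against 0.111 and 0.0982 in *Pich*-WT. For *Chd3* to *Chd4* it was 0.0541 and 0.0517 against 0.148 and 0.226. Thus for both SWI/SNF and NuRD the mRNA of the lesser motor was lower beside that of its major relative in each *Pich*-KO sample than in either *Pich*-WT sample. These are ratios of RNA, and the make-up of the complexes was not measured. The part of the macrophage, endothelial and erythroid markers in these ratios was not tested. The *Smarca1* to *Smarca5* ratio was 0.00326 and 0.00909 against 0.0132 and 0.0120. The ratio of *Ercc6* to *Ercc6l2* was 0.576 and 0.732 against 0.350 and 0.189, the one pair in which it was higher in *Pich*-KO. *Rad54b* to *Rad54l* overlapped, with 0.307 and 0.355 against 0.300 and 0.364 (exact permutation test, two-sided, p = 1.0). For each of the other 4 pairs the exact permutation test gave p = 0.333, the smallest it can give with 2 samples against 2, and 0.417 after Benjamini-Hochberg adjustment over the 5 pairs, so none could pass.

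**Figure D4:**
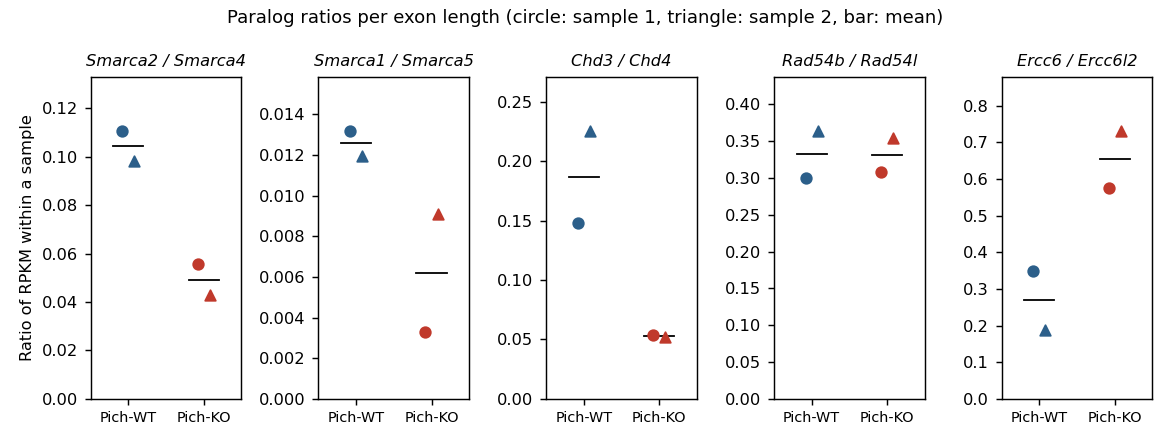
Ratio of RPKM between SNF2 paralogs in each sample (vertical axes start at 0 and differ between panels); blue marks *Pich*-WT, red *Pich*-KO, circles sample 1, triangles sample 2 and bars group means. The groups are apart for 4 pairs and overlap for *Rad54b* to *Rad54l*, and the *Chd3* to *Chd4* mean was 0.187 in *Pich*-WT and 0.0529 in *Pich*-KO.

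Most SNF2 motors work inside larger complexes, and 92 partner subunits, listed by membership, were examined beside them. Of these, 23 were higher, 6 lower and 63 did not pass, with a median log2 fold change of 0.16. Over all genes tested 7.58% were higher and 9.6% lower, and in the class of long, well expressed genes 21.5% and 21.8%. The share of partners that were higher thus lay near that of the class, while the share that were lower was under it. Among 29 subunits of INO80, SRCAP and TIP60, 7 were higher and 1 lower (median 0.24). *Ruvbl2*, an AAA+ ATPase common to these complexes, had 8799 and 10725 normalized counts in *Pich*-KO against 3579 and 3567 in *Pich*-WT (log2 fold change 1.44, SE 0.11, limma adjusted p = 0.000119). *Actr5*, an actin-related subunit found in INO80 alone, had 316 and 128 against 713 and 723 (log2 fold change −1.83, SE 0.36, limma adjusted p = 0.0107). The motor *Ino80* and its own subunit *Actr5* thus moved in opposite directions.

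NuRD had 5 of 12 subunits higher and 0 lower by limma (median 0.09), a small list beside the 21.5% higher and 21.8% lower of long, well expressed genes and the 7.58% and 9.6% of all genes. The largest rise there was in *Mta1*, a scaffold subunit, with 262 and 309 normalized counts against 156 and 134 (log2 fold change 0.97, SE 0.21, limma adjusted p = 0.0151). Of 9 ISWI partners, *Baz1b*, a bromodomain partner of SNF2H, rose from 1716 and 1607 to 3143 and 3073 (log2 fold change 0.90, SE 0.10, limma adjusted p = 0.000763). In the same list *Baz2b* fell, with 713 and 758 in *Pich*-KO against 1135 and 1007 (log2 fold change −0.54, SE 0.13, limma adjusted p = 0.0289).

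The 26 SWI/SNF subunits showed no common direction, with 3 higher and 4 lower (median −0.06). Of all genes 7.58% were higher and 9.6% lower, and of the long, well expressed class 21.5% and 21.8%. *Arid1a*, the DNA-binding subunit of the BAF form, had 1962 and 2111 normalized counts in *Pich*-KO against 977 and 907 in *Pich*-WT (log2 fold change 1.11, SE 0.12, limma adjusted p = 0.000589). *Pbrm1*, a subunit of the PBAF form, had 2176 and 2018 against 3438 and 3023 (log2 fold change −0.62, SE 0.11, limma adjusted p = 0.00625). The other 3 that fell, named after their values were seen, were *Smarcd1*, *Smarcd2* and *Brd7*. Among 16 partners of the remaining translocases, 7 were higher and 0 lower by limma (median 0.30), beside the same 7.58% and 9.6% of all genes and 21.5% and 21.8% of the long, well expressed class. *Daxx*, the H3.3 chaperone that works with ATRX, had 3792 and 2943 against 1345 and 1318 (log2 fold change 1.33, SE 0.14, limma adjusted p = 0.000508), a rise beside an *Atrx* value that did not pass.

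**Figure D5:**
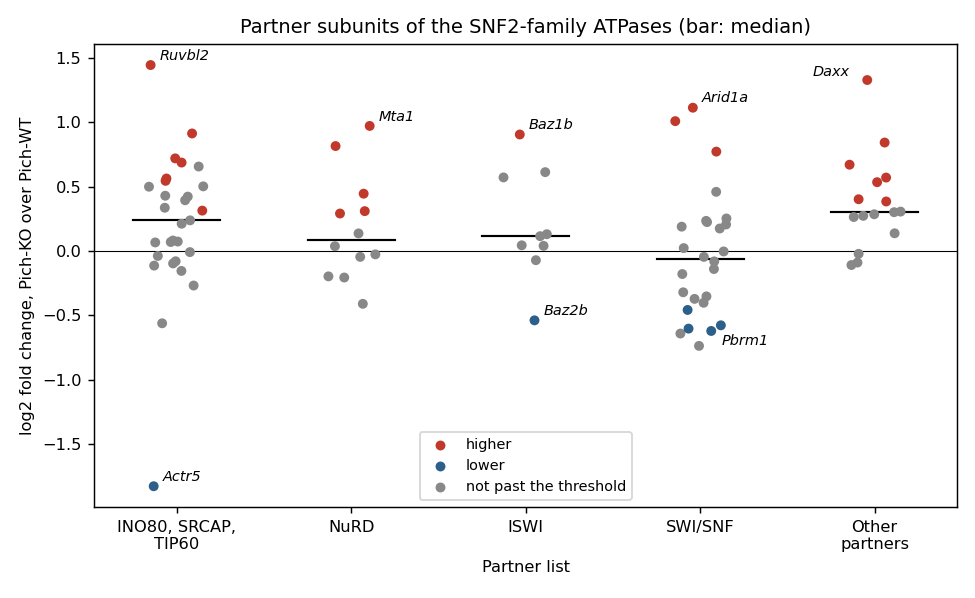
Log2 fold change of 92 partner subunits of the SNF2 motors in *Pich*-KO over *Pich*-WT LSK cells, by complex; points are genes (red higher, blue lower, grey not past the threshold; sideways spread is for legibility) and bars are medians. *Ruvbl2* (1.44) and *Actr5* (−1.83) mark the ends of the INO80, SRCAP and TIP60 list, and the SWI/SNF median lies at −0.06.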

How the data were processed

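RNA of sorted fetal liver LSK cells was sequenced for 2 samples of *Pich*-KO and 2 of *Pich*-WT embryos with the Illumina TruSeq RNA kit. The authors deposited 1 table with a signal per gene and sample, the read counts on each gene divided by a size factor. Its deposited log2 fold changes, p-values and adjusted p-values hold the authors' own comparison and were not used. The submitters' processing notes name Bowtie 0.12.2, mm8 and mm9 with no role. Start and end equalled those of GENCODE M21 for 97.83% of 39163 matched genes, so coordinates are on GRCm38. The aligner settings, the counter and its strand setting are not given in the sources used here.

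Whole reads were recovered for 100% of values in each sample (tolerance 0.001). The main test was limma on log2(normalized count + 1), with limma's variance trend, for 32428 genes with a mean of at least 1 and Benjamini-Hochberg adjustment at 0.05. This scale understates the change of low genes. Intervals of fold changes are 95% intervals from this fit. Alternatives were a pseudocount of 0.1, other filters on the mean, no variance trend, CPM, edgeR with TMM or upper-quartile scaling and DESeq2 on the recovered reads, a minimum change, a replicate block and leaving out each sample. Replicates differed beyond sampling noise (chi-square per degree of freedom 14.7 in *Pich*-KO and 8.18 in *Pich*-WT). Depth was 14703215 to 20933919 reads on genes.

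All 31 members were named, with the largest rise and fall past the threshold in each partner list. Members and lists were chosen with earlier results of these data known. Procedures were tested on simulated data. The analysis used limma 3.58.1, DESeq2 1.42.0 and edgeR 4.0.16 in R 4.3.3.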

Additional observations from a re-analysis of the deposited data

How the results depend on the processing

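All 17 members past the threshold kept their sign in all 14 other settings. With no variance trend, limma called 0 genes in either direction over all genes, the members and the partners, although 7377 genes and 17 members had an unadjusted p under 0.05, and *Ercc6l* kept 0.73 with an adjusted p of 0.194. When an absolute log2 fold change of at least 1 was required, 901 genes, 7 members and 4 partners were higher, while 0 members and 1 partner were lower, and *Ercc6l* (0.73) did not reach it. With no filter on the mean, 1 member was lower, and 15 partners were higher and 3 lower, of 1840 genes higher and 2326 lower in all. On CPM, 4 members were lower, of 3338 genes in all. Leaving out one sample gave 0 to 548 genes higher and 0 to 1193 lower, 0 to 4 members higher and 0 to 0 lower, 0 to 6 partners higher and 0 to 1 lower, and 0.62 to 0.84 for *Ercc6l*, with limma adjusted p of 0.0989 to 0.241. The samples share replicate numbers. Deviations of same-numbered samples had a correlation of 0.013 over 10544 genes, which showed no strong shared deviation. This single correlation cannot decide whether same-numbered samples were handled together. With the replicate block, 16 members were higher and 3 lower, of 3122 (9.63%) and 3874 (11.9%) over all genes. DESeq2 called 16 members higher and 2 lower, and 16.7% and 20.3% of 15635 genes. Apart from the smaller number of samples, the cause of these changes was not tested.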
